A study of Mus musculus with 12 samples.

Results

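The 10 genes described here encode the core enzymes that make leukotrienes and prostanoids from arachidonic acid, namely Pla2g4a, Alox15, Alox5, Alox5ap, Ltc4s, Lta4h, Ptgs1, Ptgs2, Hpgds and Tbxas1. They were chosen by name, as members of this pathway, out of the 53801 genes of the count table, and all 10 were found in it. RNA was sequenced from eosinophils of bone marrow and of blood, in 12 libraries that form 4 groups of 3. The Atg5-knockout groups came from Atg5flox/flox eoCre Il5tg mice, in which both alleles of Atg5 are flanked by loxP sites, and the control groups from eoCre Il5tg mice without the floxed gene. All 4 groups therefore share the Cre recombinase, which is inserted in the eosinophil peroxidase gene Epx, and the Il5 transgene, which is driven by the T cell promoter of Cd3d and raises the number of eosinophils. According to the series text 3 mice of each genotype gave the cells. The ages of these mice are not given in the sources used here, and the cells were enriched by removing other blood cells with antibodies, after a density step and lysis of red cells in the case of blood.

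Cytosolic phospholipase A2 releases arachidonic acid from membranes. From there, 5-lipoxygenase (Alox5), helped by its activating protein (Alox5ap), makes leukotriene A4, which leukotriene A4 hydrolase (Lta4h) turns into leukotriene B4 and leukotriene C4 synthase (Ltc4s) into the cysteinyl leukotriene C4. The cyclooxygenases (Ptgs1 and Ptgs2) make prostaglandin H2, which hematopoietic prostaglandin D synthase (Hpgds) and thromboxane A synthase (Tbxas1) convert further. Eosinophils are known as a source of cysteinyl leukotrienes and of products of 12/15-lipoxygenase (Alox15).

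The libraries held 18885052 to 30270166 counted reads each. The 10 eosinophil marker genes took 7.82 to 9.99% of the counts in bone marrow and 1.61 to 3.80% in blood. Epx lay between 3660 and 5702 CPM (counts scaled to a common library total, here without factors between libraries) in bone marrow and between 273 and 810 CPM in blood, whereas Siglecf, a surface marker of eosinophils, lay between 390 and 510 CPM in bone marrow and between 609 and 844 CPM in blood. Red cell genes took 14.8% of the counts of control blood replicate 1 and 0.427 to 1.44% of the other blood libraries. The B cell list took 0.109% in control blood replicate 1 and 0.221% in Atg5-knockout blood replicate 1, against at most 0.0387% in the other blood libraries, so both blood libraries numbered 1 stood apart. Neutrophil genes took 1.88 to 2.76% in bone marrow and 0.624 to 1.60% in blood, monocyte and macrophage genes 0.193 to 0.235% and 0.154 to 0.196%, and basophil and mast cell genes 0.0492 to 0.0597% and 0.0205 to 0.0431%. The counts of Atg5 itself sum all its exons and do not check the deletion. They gave 32.5 ± 1.84 CPM in Atg5-knockout and 42.8 ± 1.80 CPM in control bone marrow, and 46.4 ± 9.04 and 47.6 ± 9.98 CPM in blood (SD, n = 3 each).

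Alox15 and Alox5ap had the highest levels among the 10 genes. Levels below are CPM scaled with TMM factors over all 12 libraries, and levels of different genes are compared only after division by the exon length of the count table, as CPM per kilobase. Alox15 had 1070 ± 213 CPM per kilobase in control bone marrow, 1163 ± 83.8 in Atg5-knockout bone marrow, 1243 ± 87.4 in control blood and 904 ± 115 in Atg5-knockout blood (SD, n = 3). Alox5ap had 584 ± 47.2, 520 ± 73.2, 1329 ± 350 and 1439 ± 373 CPM per kilobase in the same order of groups. Together these genes made up the largest part of the summed level of the 10 genes, with Alox15 at 55.4% and Alox5ap at 30.2% in control bone marrow, and at 42.7% and 45.7% in control blood. Alox15 was above Alox5ap in bone marrow, in control blood the means differed by less than the spread of Alox5ap, and in Atg5-knockout blood Alox5ap was above Alox15. Alox5 (115 to 145 CPM per kilobase over the 4 group means) and Lta4h (59.2 to 121) followed. Ptgs1, Pla2g4a and Tbxas1 lay between 11.3 and 31.4 CPM per kilobase, and Ltc4s, Ptgs2 and Hpgds at most at 3.22.

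**Figure D1:**
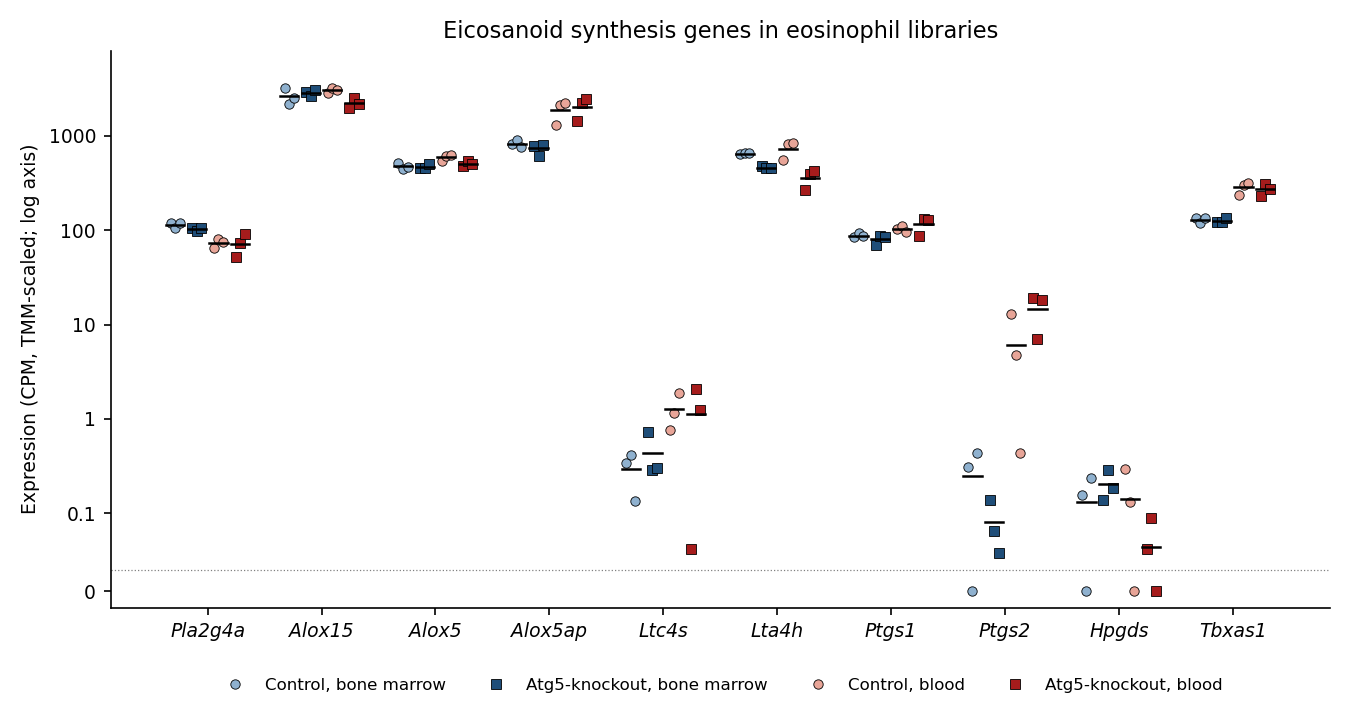
Expression of the 10 genes in each of the 12 libraries, in CPM scaled with TMM factors on a log axis, with libraries at 0 drawn below the dotted line. Points are libraries and the short lines are means of 3. Lta4h in Atg5-knockout bone marrow (453 to 476 CPM) lies below control bone marrow (645 to 656 CPM), and Alox5ap, Tbxas1 and Ptgs2 reach higher levels in blood than in bone marrow.

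The first comparison asked which of these genes differ between Atg5-knockout and control eosinophils of the bone marrow. Lta4h, the enzyme that makes leukotriene B4, fell in Atg5-knockout bone marrow eosinophils. It was the 1 member called of the 7 tested, where 0.348% of the 13781 genes tested were called, 0.145% higher and 0.203% lower. Lta4h (ENSMUSG00000015889, chr10:93453411-93484875 on the plus strand of GRCm38, 19 exon blocks, no other gene overlapping it) had 645, 652 and 656 CPM in the control libraries and 476, 459 and 453 CPM in the Atg5-knockout libraries of bone marrow. Every Atg5-knockout library was below every control library, with a gap far wider than the spread within either group, and of all genes tested 14.5% had groups without overlap, 9.03% higher and 5.51% lower. The log2 fold change was -0.53 (SE, the standard error, 0.10, 95% interval -0.75 to -0.32, adjusted p = 0.0385 in edgeR's quasi-likelihood test), a level 0.690 times that of control. In bulk RNA, fewer cells of a type and less RNA per cell cannot be told apart. Leaving out 1 library kept the fold change between -0.56 and -0.51, and the adjusted p was 0.0225 without control replicate 1 and 0.106 to 0.207 without any 1 of the other 5 libraries. The call was also lost with the replicate number as a block (adjusted p = 0.197) and in 1 fit of all 12 libraries (log2 fold change -0.51, adjusted p = 1), and was kept with DESeq2, limma-voom, other scalings and other filters.

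In blood the same gene showed a wider difference with more spread. Lta4h had 555, 816 and 834 CPM in control blood and 267, 391 and 425 CPM in Atg5-knockout blood. The groups did not overlap, and in each genotype the library numbered 1 was the lowest. On the log2 scale the difference was -0.99 (SE 0.24, 95% interval -1.55 to -0.44, unadjusted p = 0.0030, adjusted p = 1 in edgeR's test). Blood libraries with the same replicate number deviated together (correlations 0.501, 0.210 and 0.299), but those numbered 2 and 3 also correlated across numbers (0.138 and 0.121). With the replicate number as a block the log2 fold change was -1.0 (SE 0.13, adjusted p = 0.0444 in edgeR's test), which passes the threshold. Without control blood replicate 1, the library with the red cell genes, and without the block it was -1.15 (adjusted p = 0.437 in edgeR's test). The interaction, which tests whether the knockout effect differs between the tissues, gave -0.51 for Lta4h (SE 0.26, 95% interval -1.06 to 0.05, adjusted p = 0.942 in edgeR's test).

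The promoter window of Lta4h is shown because Lta4h is the member that differed between genotypes. It comes from RefSeq on GRCm38.p6, at chr10:93453146-93453425 on the plus strand, and runs 5′ to 3′ from 250 bases before the annotated start to 30 bases into the transcript.

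Lta4h: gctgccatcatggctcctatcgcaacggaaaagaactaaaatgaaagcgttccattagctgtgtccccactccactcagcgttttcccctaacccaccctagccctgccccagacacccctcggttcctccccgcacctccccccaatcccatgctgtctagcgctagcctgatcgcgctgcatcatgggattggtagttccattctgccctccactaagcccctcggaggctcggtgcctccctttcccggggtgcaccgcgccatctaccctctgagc

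This window held none of the 4 motifs searched on both strands. The first was TGACG, part of a cAMP response element, held by 19.9% of the 32851 windows of this length. The E-box CACGTG was held by 6.79% of them. The palindrome TTGCGCAA, bound by C/EBP proteins, was held by 0.18%. The GATA site AGATAA was held by 10.7%. No capitals therefore appear in it.

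Genes close to Lta4h on chromosome 10 were also called in bone marrow. Of the 17 other genes tested within 1 Mb of it, 4 passed the test, 1 higher and 3 lower in Atg5-knockout. Hal, which encodes histidine ammonia-lyase and starts 35.4 kb downstream, had 1.12 on the log2 scale (adjusted p = 0.0123), and Elk3, an ETS transcription factor whose start lies at -142.3 kb from that of Lta4h, had -0.99 (adjusted p = 0.0177). Fgd6, a guanine nucleotide exchange factor 582.6 kb downstream, had -1.62 (adjusted p = 0.00376), and Ndufa12, a subunit of respiratory complex I 745.5 kb downstream, -0.80 (adjusted p = 0.0236). These genes were named after their values had been seen. Of all 48 genes called in bone marrow, 9 (18.8%) were on chromosome 10, which held 4.88% of the genes tested. Atg5 itself lies on the same chromosome, at chr10:44268358-44364291, 49.1 Mb from Lta4h. The part of this position in the result was not tested.

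In blood none of the 15 other genes tested in the same window was called, and 4 had an unadjusted p under 0.05. Hal had a log2 fold change of 1.86 (unadjusted p = 0.0011), Fgd6 -1.05 (unadjusted p = 0.0011) and Elk3 -0.52 (unadjusted p = 0.0254), whereas Ndufa12 had 0.04 (unadjusted p = 0.872), all from edgeR's test with adjusted p of at least 0.83. Cfap54, which encodes a protein of cilia and flagella, had 2.16 in blood (unadjusted p = 0.00575) and 2.13 in bone marrow (adjusted p = 0.0999), neither of them called. Hal and Cfap54 lay above 0 and Elk3 and Fgd6 below 0 in both tissues, and Ndufa12 was near 0 in blood.

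**Figure D2:**
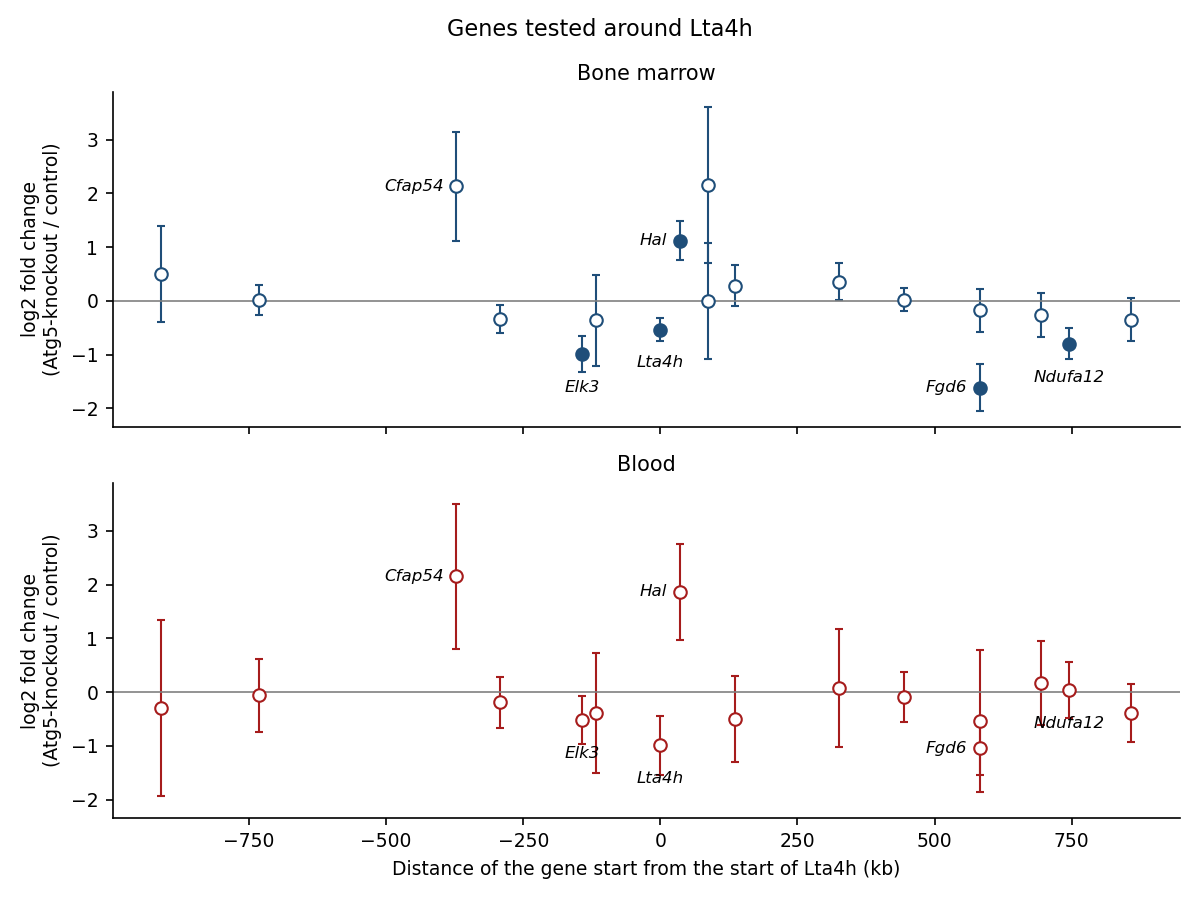
Log2 fold change (Atg5-knockout over control) of every gene tested within 1 Mb of Lta4h, against the distance of its start from that of Lta4h in kb, with 95% intervals, in bone marrow (upper panel) and blood (lower panel). Filled points have an adjusted p under 0.05. In bone marrow Elk3, Lta4h, Fgd6 and Ndufa12 are filled below 0 and Hal above 0, next to genes close to 0, and in blood no point is filled.

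The other members did not pass the test between genotypes in bone marrow. Pla2g4a, Alox15, Alox5, Alox5ap, Ptgs1 and Tbxas1 had log2 fold changes between -0.21 and 0.08 and adjusted p between 0.562 and 0.907 in edgeR's test, and their groups overlapped. The widest of their 95% intervals ran from -0.49 to 0.08 (Alox5ap) and from -0.20 to 0.37 (Alox15). Over the 7 members tested the median log2 fold change was -0.16, beside 0.00 over all genes tested. Ltc4s, Ptgs2 and Hpgds were too low to pass the filter on low counts in this comparison.

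**Figure D3:**
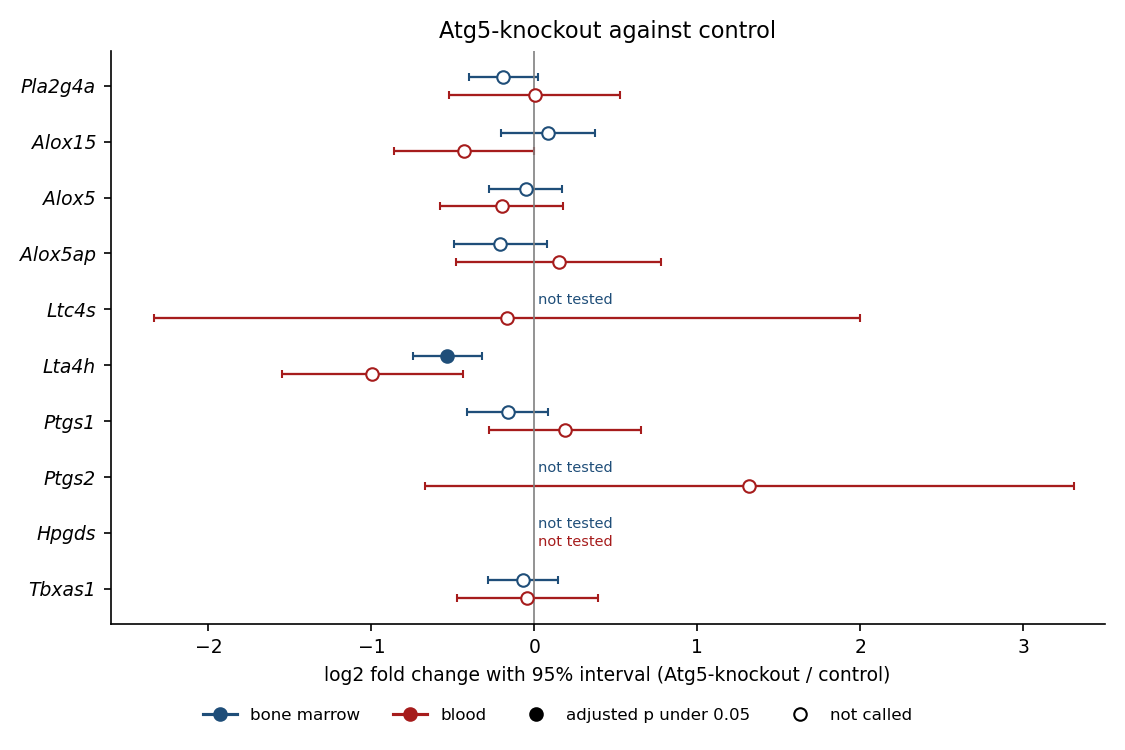
Log2 fold change of Atg5-knockout against control for the 10 genes in bone marrow and in blood, with 95% intervals from edgeR's fit. Filled points have an adjusted p under 0.05 and genes under the filter on low counts are marked as not tested. Lta4h in bone marrow is the filled point, and its interval in blood also lies below 0 although it was not called there.

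Without the replicate block no member was called between the genotypes in blood, where 5 of 13460 genes tested were (0.0371%), and with it Lta4h was, among 7 genes higher and 3 lower. Alox15 (ENSMUSG00000018924, chr11:70344152-70352031, minus strand), which oxygenates arachidonic acid to 12- and 15-hydroxylated products, had 2828, 3256 and 3069 CPM in control blood and 1965, 2524 and 2166 CPM in Atg5-knockout blood. All Atg5-knockout libraries were below all control libraries. This gave a log2 fold change of -0.43 (SE 0.19, 95% interval -0.86 to -0.00, unadjusted p = 0.0493, adjusted p = 1 in edgeR's test), and with the replicate block -0.44 (adjusted p = 0.461). In bone marrow Alox15 had 3193, 2163 and 2518 CPM in control and 2889, 2633 and 3040 CPM in Atg5-knockout libraries, which overlapped. The interaction for Alox15 was -0.56 (SE 0.22, unadjusted p = 0.0254, adjusted p = 0.942 in edgeR's test).

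Alox5 was the other member whose blood groups did not overlap, with 545, 608 and 632 CPM in control and 479, 543 and 499 CPM in Atg5-knockout libraries. Its log2 fold change was -0.20 (95% interval -0.58 to 0.18, adjusted p = 1 in edgeR's test). With Lta4h and Alox15 this makes 3 of 9 members tested below control without overlap, where 7.54% of all genes tested had groups without overlap, 3.25% higher and 4.29% lower. Alox5 is counted although its groups all but touch. Control replicate 1, the library with the red cell genes, had 545 CPM and Atg5-knockout replicate 2 had 543 CPM. Ptgs2, the inducible cyclooxygenase, had 12.9, 4.72 and 0.440 CPM in control blood and 19.1, 7.05 and 18.1 CPM in Atg5-knockout blood. The groups overlapped, and control replicate 3 was the lowest by far. This gave a log2 fold change of 1.32 with a 95% interval from -0.67 to 3.31 (adjusted p = 1 in edgeR's test). Alox5ap, Pla2g4a, Ptgs1, Tbxas1 and Ltc4s had log2 fold changes between -0.17 and 0.19 in blood and overlapping groups. No member passed the test of the interaction, nor did any of the 14712 genes tested (0% called, 740 with an unadjusted p under 0.05, and 11 called with DESeq2, none of them a member).

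The second question was how the members differ between eosinophils of blood and of bone marrow, within each genotype. Alox5ap, Tbxas1 and Ptgs2 rose in blood in both genotypes. In control eosinophils 4 of the 9 members tested rose (Alox5ap, Tbxas1, Ptgs2 and Ltc4s) and 1 fell (Pla2g4a), where 34.2% of all genes tested were called, 16.2% higher and 18% lower. In Atg5-knockout eosinophils 4 of 9 rose (Alox5ap, Tbxas1, Ptgs2 and Ptgs1) and none fell, where 47.6% of all genes were called, 23.5% higher and 24.1% lower. In control, groups did not overlap for 7 of the 9 members, 6 higher and 1 lower in blood. Ptgs2 is counted there although its groups all but touch. In Atg5-knockout they did not overlap for 6 of 9, 3 higher and 3 lower. The lower ones were Pla2g4a, Alox15 and Lta4h, none of them called. Of all genes tested, 49.7% had groups without overlap in control (22.3% higher and 27.4% lower) and 60.1% in Atg5-knockout (25.9% higher and 34.2% lower). The median log2 fold change over the members tested was 0.34 in control and 0.58 in Atg5-knockout, beside -0.00 and -0.01 over all genes tested. As the series text reads, blood and bone marrow came from the same mice, but the labels do not say that a replicate number marks a mouse, and these tests treat the libraries as independent. Marker lists moved with tissue as well, as given above, and their part in these differences was not tested.

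Alox5ap (ENSMUSG00000060063, chr5:149264767-149288153, plus strand), the membrane protein that hands arachidonic acid to 5-lipoxygenase, had 829, 896 and 761 CPM in control bone marrow and 1318, 2111 and 2232 CPM in control blood. In Atg5-knockout it had 789, 619 and 808 CPM in bone marrow and 1447, 2223 and 2460 CPM in blood. In both genotypes all blood libraries were above all bone marrow libraries, and the blood library numbered 1 was the lowest of its group. The log2 fold change was 1.2 in control (SE 0.22, adjusted p = 0.00385) and 1.53 in Atg5-knockout (SE 0.21, adjusted p = 0.00050, both in edgeR's test). Of its 1420 exon bases 189 are shared with Gm19719 on the opposite strand, whose reads cannot be told apart from those of Alox5ap there.

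Its partner Alox5 (ENSMUSG00000025701, chr6:116410077-116461178, minus strand) had 516, 448 and 467 CPM in control bone marrow, and 456, 454 and 508 CPM in Atg5-knockout bone marrow. Against the blood levels given above, the log2 fold change was 0.34 in control (95% interval -0.00 to 0.67, adjusted p = 0.115) and 0.17 in Atg5-knockout (95% interval -0.10 to 0.44, adjusted p = 0.280, both in edgeR's test). Alox5 thus did not pass the test in either genotype, although its control groups did not overlap, and without control blood replicate 1 it did (log2 fold change 0.39, adjusted p = 0.0330). Whether Alox5ap and Alox5 differ from each other in their change was not tested.

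Tbxas1 (ENSMUSG00000029925, chr6:38875404-39084585, plus strand), which makes thromboxane A2, had 135, 120 and 134 CPM in control and 122, 123 and 136 CPM in Atg5-knockout bone marrow. In blood it had 236, 304 and 317 CPM in control and 231, 307 and 277 CPM in Atg5-knockout. All 6 blood libraries were above all 6 bone marrow libraries, and the genotypes overlapped in each tissue. On the log2 scale the difference was 1.15 in control (SE 0.16, adjusted p = 0.00102) and 1.16 in Atg5-knockout (SE 0.14, adjusted p = 0.000198, both in edgeR's test). The calls for Alox5ap and Tbxas1 held in each of the 6 fits per genotype that left out 1 library. Tbxas1 is also known from platelets and macrophages. The 12 platelet genes took 0.0379 to 0.0480% of the counts in bone marrow and 0.0302 to 0.0657% in blood, and their part in the level of Tbxas1 was not tested.

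Ptgs2 (ENSMUSG00000032487, chr1:150100031-150108227, plus strand) was close to the limit of detection in bone marrow. It had 0.310, 0 and 0.440 CPM in control and 0.138, 0.0645 and 0.0375 CPM in Atg5-knockout bone marrow, from 23 and 7 reads in all. With the blood levels given above, the log2 fold change was 4.57 in control (SE 1.21, 95% interval 1.83 to 7.31, adjusted p = 0.0189) and 7.5 in Atg5-knockout (SE 0.59, 95% interval 6.17 to 8.82, adjusted p = 2.16e-05, both in edgeR's test). In Atg5-knockout every blood library was far above bone marrow, whereas in control blood replicate 3, at 0.4402 CPM, was level with the highest bone marrow library at 0.4397 CPM. The control call was lost without any 1 of the bone marrow libraries (adjusted p between 0.0526 and 0.0725) and with limma-voom (adjusted p = 0.110). The interaction was 2.91 (SE 1.58, adjusted p = 0.942 in edgeR's test). Over the 12 libraries the genes whose log2 CPM followed Ptgs2 most closely were Csrnp1 (Pearson's r = 0.974), Nfatc1 (0.965) and Osgin2 (0.963), a description over libraries that also differ by tissue. Csrnp1 had 15.4 ± 2.91 CPM in control bone marrow and 94.0 ± 54.5 CPM in control blood (SD, n = 3).

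The promoter windows of Ptgs2 and Tbxas1 are shown because both members rose in blood in both genotypes. RefSeq gives no window for Alox5ap and Alox15 in the table used here. The windows are on the plus strand of GRCm38.p6, at chr1:150099781-150100060 for Ptgs2 and chr6:38918736-38919015 for Tbxas1, where the annotated start lies inside the gene as the count table spans it. Capitals mark the motifs searched for, both strands counted.

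Ptgs2: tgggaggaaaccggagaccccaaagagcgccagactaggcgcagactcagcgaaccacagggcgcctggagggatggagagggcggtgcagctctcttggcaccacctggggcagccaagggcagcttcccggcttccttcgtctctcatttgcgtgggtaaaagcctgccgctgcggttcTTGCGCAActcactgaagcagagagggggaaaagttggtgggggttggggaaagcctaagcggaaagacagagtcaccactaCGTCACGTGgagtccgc

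Tbxas1: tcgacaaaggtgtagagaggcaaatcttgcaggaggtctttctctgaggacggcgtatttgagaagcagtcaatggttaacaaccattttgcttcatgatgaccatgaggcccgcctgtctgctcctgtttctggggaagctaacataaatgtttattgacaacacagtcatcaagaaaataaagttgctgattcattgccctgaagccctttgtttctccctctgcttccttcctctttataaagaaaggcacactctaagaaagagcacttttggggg

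The Ptgs2 window held TTGCGCAA from 69 to 62 bases before the annotated start. It also held TGACG, read on the strand not printed, at bases 14 to 18 counted from that start. The latter shares bases with CACGTG at bases 17 to 22. Where transcription of Ptgs2 begins in these cells was not tested. The windows of Tbxas1 and of the other 6 members with one held none of the 4 motifs, which were chosen after the sequences had been seen. Such a match describes letters and not a bound site.

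Pla2g4a (ENSMUSG00000056220, chr1:149829618-149961290, minus strand), the cytosolic phospholipase A2, was the member that fell in control blood. It had 120, 105 and 118 CPM in control bone marrow and 65.1, 81.1 and 74.4 CPM in control blood. In Atg5-knockout it had 104, 98.8 and 106 CPM in bone marrow and 51.8, 72.4 and 91.8 CPM in blood. The groups did not overlap in either genotype. This gave a log2 fold change of -0.62 in control (SE 0.15, adjusted p = 0.0124) and -0.45 in Atg5-knockout (SE 0.19, adjusted p = 0.0787, both in edgeR's test). The control call was lost without control bone marrow replicate 1 (adjusted p = 0.0505) or 3 (adjusted p = 0.0671), and the Atg5-knockout difference passed without Atg5-knockout blood replicate 3 (log2 fold change -0.68, adjusted p = 0.00924).

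Ptgs1 (ENSMUSG00000047250, chr2:36230426-36252272, plus strand), the constitutive cyclooxygenase, had 84.0, 93.5 and 86.7 CPM in control bone marrow, 103, 111 and 95.8 CPM in control blood, 70.3, 87.5 and 85.4 CPM in Atg5-knockout bone marrow and 86.2, 132 and 129 CPM in Atg5-knockout blood. The Atg5-knockout groups overlapped and the control groups did not. This gave a log2 fold change of 0.58 in Atg5-knockout (SE 0.18, adjusted p = 0.0239), which passed the test, and 0.25 in control (SE 0.15, adjusted p = 0.230, both in edgeR's test), which did not, while the interaction was 0.30 (adjusted p = 0.942). The call was lost in 5 of the 6 fits that left out 1 library, with adjusted p up to 0.111, and was kept without Atg5-knockout blood replicate 1. Alox15 and Lta4h did not pass the test between tissues in either genotype. Their log2 fold changes were 0.24 and 0.19 in control and -0.30 and -0.29 in Atg5-knockout, and Lta4h passed in control without control blood replicate 1 (log2 fold change 0.35, adjusted p = 0.0414).

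**Figure D4:**
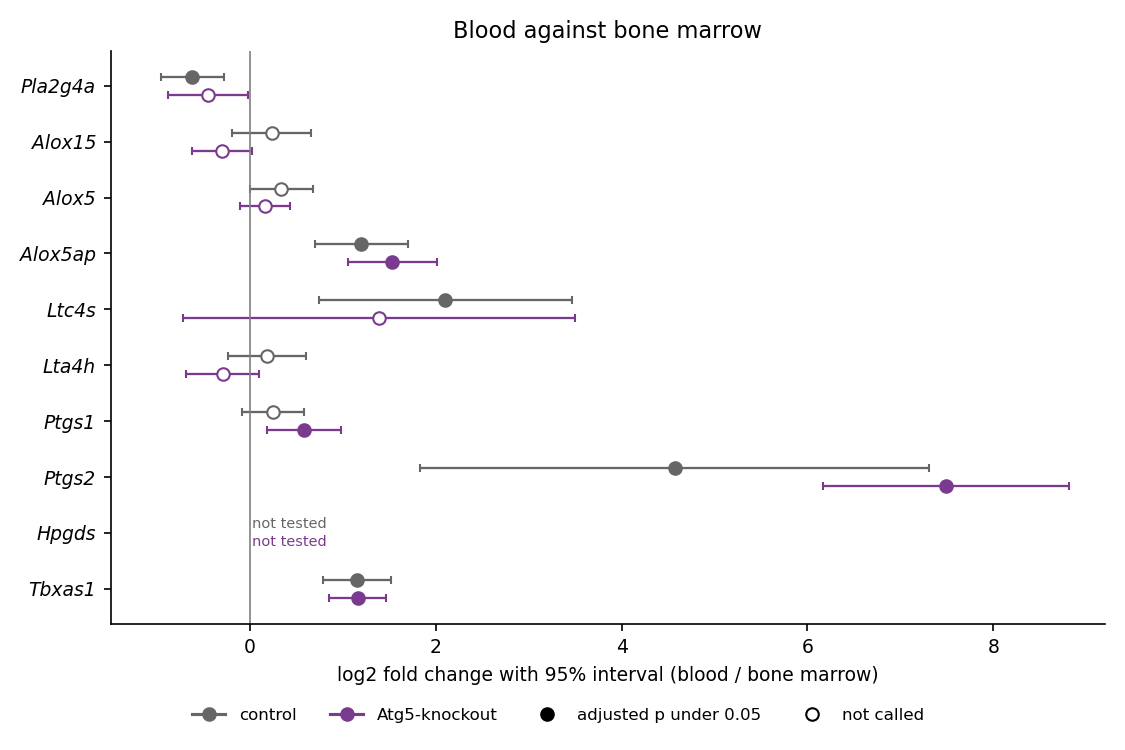
Log2 fold change of blood against bone marrow for the 10 genes in control and in Atg5-knockout eosinophils, with 95% intervals from edgeR's fit. Filled points have an adjusted p under 0.05. Alox5ap, Tbxas1 and Ptgs2 are filled to the right of 0 in both genotypes, Ptgs2 with the widest interval, from 1.83 to 7.31 in control.

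The enzymes that define the cysteinyl leukotriene and prostaglandin D2 branches were barely detected. Ltc4s (ENSMUSG00000020377, chr11:50236461-50238616, minus strand) had 26 reads in all in control bone marrow, 38 in Atg5-knockout bone marrow, 78 in control blood and 72 in Atg5-knockout blood. These correspond to 0.341, 0.412 and 0.135 CPM in control bone marrow and 0.769, 1.15 and 1.91 CPM in control blood, and to 0.723, 0.290 and 0.300 CPM in Atg5-knockout bone marrow and 0.0421, 2.06 and 1.24 CPM in Atg5-knockout blood. The control tissues did not overlap, with a log2 fold change of 2.10 (SE 0.60, adjusted p = 0.0262), whereas in Atg5-knockout blood replicate 1 was the lowest library of all and the log2 fold change was 1.39 (SE 0.93, adjusted p = 0.247, both in edgeR's test). The control call was lost in 5 of the 6 fits that left out 1 library, with adjusted p between 0.0545 and 0.123, and with the replicate block (adjusted p = 0.0523). In Atg5-knockout eosinophils Ltc4s passed without blood replicate 1 (log2 fold change 1.96, adjusted p = 0.0138). Of its 1014 exon bases 268 are shared with Gm26542 on the opposite strand. The genes that followed Ltc4s most closely over the 12 libraries were Smim40 (r = 0.911), Acp2 (0.907) and Vta1 (0.870). This only describes libraries that also differ by tissue, and Ltc4s had 1 to 46 reads in each of them.

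Hpgds (ENSMUSG00000029919, chr6:65117293-65144908, minus strand) had 12 reads in control bone marrow, 18 in Atg5-knockout bone marrow, 8 in control blood and 3 in Atg5-knockout blood, summed over 3 libraries each. Its highest library had 0.296 CPM and 3 libraries had more than 0.2 CPM. It passed the filter on low counts in no comparison and was not tested in the main fits. In the fits without that filter and with DESeq2 it was included and not called in any comparison. Reads this few limit what can be said of a difference between groups. The other prostaglandin D synthase, Ptgds, was at 0 in all 3 control blood libraries and at most at 0.547 CPM in any library. For Alox15, the nearest genes over the 12 libraries were Ldha-ps2 (r = 0.913), Susd1 (0.879) and Cs (0.859), again a description over libraries that also differ by tissue.

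A wider list of 64 genes around the pathway was counted in the same fits. No gene of it passed the test between genotypes, of 42 tested in bone marrow and 41 in blood. Between tissues, 11 rose and 9 fell in control blood and 13 rose and 12 fell in Atg5-knockout blood, of 41 tested in each, beside the 34.2% (control) and 47.6% (Atg5-knockout) of all genes that were called. Called in both genotypes were 18 genes, 90% of those called in control and 72% of those called in Atg5-knockout, of which 11 rose and 7 fell in both.

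Among the phospholipases and acyltransferases, Pla2g7, the platelet-activating factor acetylhydrolase, rose from 544, 622 and 586 CPM in control bone marrow to 1400, 2386 and 2754 CPM in control blood, and from 526, 348 and 510 to 1742, 2644 and 2695 CPM in Atg5-knockout. Its log2 fold changes were 1.91 (adjusted p = 0.000723) and 2.42 (adjusted p = 6.22e-05). Mboat7, which places arachidonic acid into phosphatidylinositol, rose in both genotypes (1.07 and 1.17), as did Mgll, which frees arachidonic acid from 2-arachidonoylglycerol (0.64 and 0.67), Pla2g3, a secreted phospholipase (0.65 and 0.83), and Plaat3 (2.58 and 1.37). With library size alone the control calls of Mgll and Pla2g3 were lost. The lysosomal phospholipase Pla2g15 fell (-1.31 and -0.97). The desaturases that build arachidonic acid from linoleic acid fell too, Fads1 by 2.16 and 1.99 and Fads2 by 2.47 and 3.24 on the log2 scale, and so did the acyl-CoA synthetase Acsl3 (-1.25 and -1.63).

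Of the genes that break down or process the products, Hpgd, the 15-hydroxyprostaglandin dehydrogenase, had 0.465, 1.24 and 1.12 CPM in control bone marrow and 8.58, 13.4 and 3.62 CPM in control blood. In Atg5-knockout it had 1.86, 1.74 and 1.24 CPM in bone marrow and 12.9, 13.5 and 16.3 CPM in blood. Its log2 fold change was 3.20 in both genotypes (adjusted p = 0.00305 in control and 2.40e-05 in Atg5-knockout in edgeR's test). Cyp4f18, which hydroxylates leukotriene B4, rose by 1.21 and 1.38, and Ggt5, which cleaves leukotriene C4, passed in Atg5-knockout (1.34) and not in control (0.71), with an interaction of 0.60 (adjusted p = 0.942). Ptgr1, which takes part in breaking down leukotriene B4 and prostaglandins, fell by 1.91 and 2.04 on the log2 scale, from 43.5 ± 2.89 to 11.5 ± 2.53 CPM in control (SD, n = 3).

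Of the membrane proteins related to Ltc4s and Alox5ap, Mgst1, a glutathione transferase of the endoplasmic reticulum, rose from 203 ± 10.3 to 410 ± 33.8 CPM in control (log2 fold change 1.03) and from 207 ± 12.5 to 453 ± 65.2 CPM in Atg5-knockout (1.19). Mgst2, which can also make leukotriene C4, fell (-0.86 and -0.48), from 22.2, 34.7 and 31.1 CPM in control bone marrow to 15.2, 16.7 and 16.1 CPM in control blood. Mgst3 had -0.50 in control, which was not called, and -0.62 in Atg5-knockout, which was. Abcc1, the exporter of leukotriene C4, rose (0.57 and 0.40), but its calls were lost with library size alone (adjusted p = 0.304 in control and 0.299 in Atg5-knockout), in control without control blood replicate 1 (0.0647) and in Atg5-knockout with the replicate block (0.0583). Mgst2 in Atg5-knockout also lost its call with the block, and the prostaglandin exporter Abcc4 had -0.07 in control and -0.54 in Atg5-knockout, the latter called.

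Of the prostaglandin E synthases, Ptges3 fell in control blood (log2 fold change -0.85, adjusted p = 0.00329) and had -0.04 in Atg5-knockout (interaction 0.78, adjusted p = 0.925), and Ptges fell in Atg5-knockout (-1.73, adjusted p = 0.00531) and had -0.71 in control. Ptges2 lay between 8.58 and 12.6 CPM in the 4 group means and passed no test. Among the other lipoxygenases, Alox12e was at 85.3 to 118 CPM in the group means with no call, and Alox8 fell in control blood (-1.12) and had -1.13 in Atg5-knockout, which was not called. Alox12, the platelet-type 12-lipoxygenase, had 43.8 CPM in control blood replicate 1 and 4.10 and 5.18 CPM in the other control blood libraries. In the same library the platelet genes Pf4 and Gp9 were at 30.1 and 23.4 CPM, against at most 5.17 and 4.04 CPM in the other 11. The whole platelet list took 0.0657% of the counts there, against at most 0.0480% in the other 11. All genes of that list but Itgb3 and Itga2b were highest there. These had 258 and 125 CPM there, against up to 293 and 220 CPM elsewhere. The part of platelets in the level of Alox12 was not tested. The log2 fold change of Alox12 was 5.09 in control, and 3.14 without control blood replicate 1 (adjusted p = 0.000185 in edgeR's test). In Atg5-knockout it was 1.28, and that call was lost with library size alone. Plaat3 was also highest in control blood replicate 1, at 60.9 CPM, and its control log2 fold change without that library was 1.41.

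**Figure D5:**
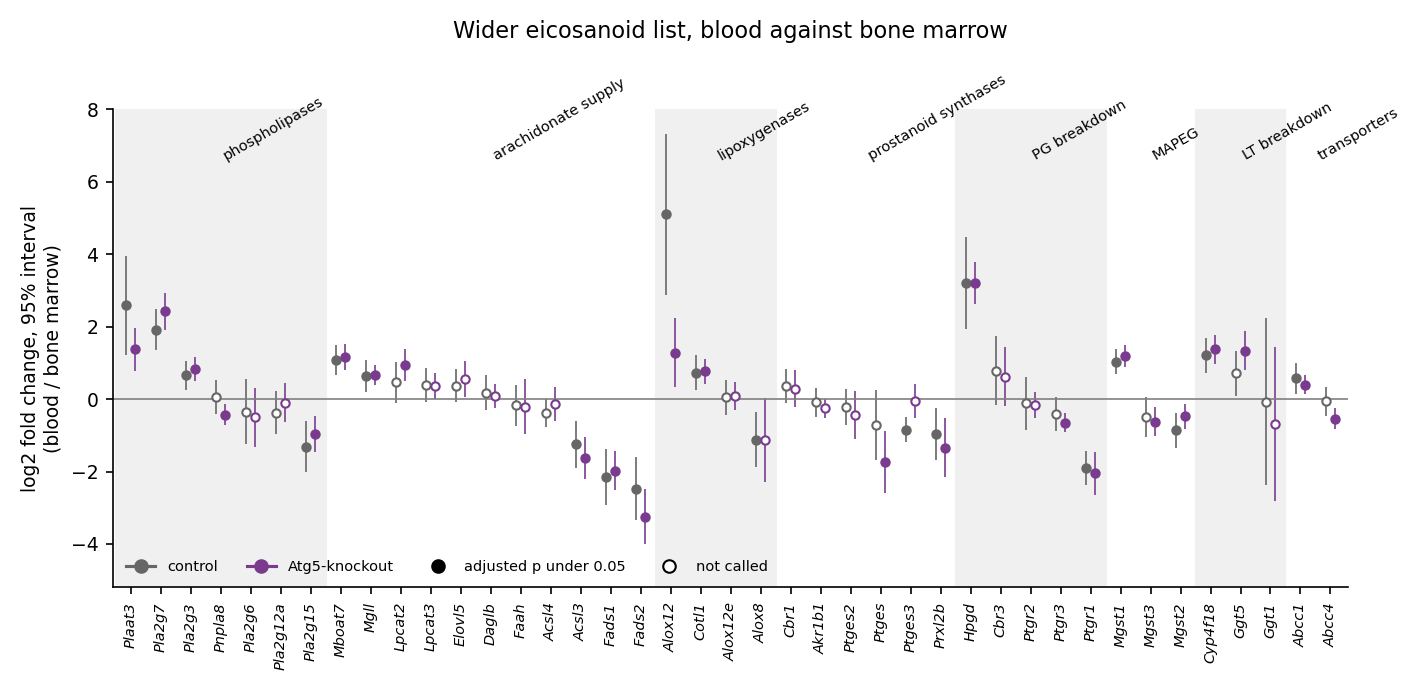
Log2 fold change of blood against bone marrow for the 41 genes of the wider list that were tested, grouped by role (PG, prostaglandin; LT, leukotriene; MAPEG, the family of Mgst1, Mgst2 and Mgst3), with 95% intervals from edgeR's fit in control and in Atg5-knockout. Filled points have an adjusted p under 0.05. Hpgd, Pla2g7 and Cyp4f18 are filled above 0 and Fads1, Fads2 and Ptgr1 below 0 in both genotypes.

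The tissue differences depend on how libraries are scaled. Scaling by library size alone, instead of by TMM factors, moved the median of all genes from -0.00 to -0.31 in control and from -0.01 to -0.24 in Atg5-knockout, and turned the calls over all genes from 2212 higher and 2466 lower to 1308 and 3906 in control and from 3256 and 3336 to 2258 and 4333 in Atg5-knockout. Alox5ap, Tbxas1 and Ptgs2 stayed called as higher in blood in both genotypes under that scaling. Ptgs1 in Atg5-knockout was no longer called (log2 fold change 0.33, adjusted p = 0.102), and Pla2g4a (-0.70), Lta4h (-0.54) and Alox15 (-0.53) were called as lower in Atg5-knockout blood. On the wider list 16 of the 20 control calls and 23 of the 25 Atg5-knockout calls remained under it, and none turned its direction.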

How the data were processed

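RNA of eosinophils from bone marrow and blood of control and Atg5-knockout mice was sequenced in 12 libraries, 3 for each genotype and tissue. The authors deposited 1 table of raw read counts per gene. They aligned single-end reads of 100 bases with HISAT2 2.2.1 and counted them with featureCounts 2.0.1, without a strand or multi-mapping option per the file headers, so reads of opposite strands were not separated. The header names Ensembl release 92 on GRCm38, and the study's methods name a GRCm39 annotation. Coordinates here are those of the table. The authors' own tests used DESeq2 1.32.0 in R 4.1.0.

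Counts were tested in R 4.3.3 with edgeR 4.0.16 (quasi-likelihood F test, TMM factors, filterByExpr with a minimum count of 10 and a total of 15) over the 6 libraries of each comparison, and over all 12 for the interaction. Benjamini-Hochberg adjusted p under 0.05 was called, and fold changes used a prior count of 0.125. The fits were tested on simulated data. Symbols matched 49674 of 53801 identifiers, and 64 of 65 genes of the wider list. Library totals were 18885052 to 30270166, and replicates differed by more than counting noise (chi-square per degree of freedom 15.6 to 325). Nothing in the labels ties replicate numbers to animals, so p-values measure the spread between these samples. In blood, same-numbered libraries deviated together (correlations 0.501, 0.210 and 0.299), so the replicate block is given there. Libraries numbered 2 and 3 also correlated across numbers between the genotypes (0.138 and 0.121). Those numbered 1 correlated negatively with both (-0.244 to -0.409). Deviations were taken from the mean of each group of 3, which ties these correlations to one another. With a positive correlation between the libraries numbered 1, those with the other numbers are negative on balance by construction.

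The members and lists were chosen with earlier results of these data known. Named were all members, up to 8 called genes of the wider list per comparison and direction by lowest p, a preset group of other enzymes, and the 3 genes nearest to Alox15, Ltc4s and Ptgs2. Genes near Lta4h were chosen after their values were seen. Alternatives were other scalings, filters, DESeq2 1.42.0, limma-voom (limma 3.58.1), 1 fit of 12 libraries, the block and leaving out each library. Promoter windows came from RefSeq on GRCm38.p6.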

Additional observations from a re-analysis of the deposited data

How the results depend on the processing

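Of the values for single members under settings other than leaving out a library, 303 of 332 kept their direction and side of the threshold, 15 turned sign, 8 passed the threshold newly and 6 lost it, and with 1 library left out 273 of 312 kept both. For the members in bone marrow between genotypes, the 1 call (Lta4h) became 0 in 1 fit of 12 libraries and with the replicate block (adjusted p = 0.197), and 0 to 1 with a library left out. In blood the block gave 1 member lower. The wider list gave 1 higher and 3 lower without the filter in bone marrow, 1 and 1 with DESeq2, 0 to 1 in each direction with a library left out, and in blood 1 lower without the filter. Over all genes, bone marrow calls were 20 higher and 28 lower, against 161 and 259 without the filter, 59 and 133 with DESeq2, 7 and 5 in 1 fit of 12 libraries and 11 and 12 with the block. In blood they were 5 and 0, against 18 and 59 without the filter, 15 and 8 with DESeq2, 12 and 4 in 1 fit of 12 libraries and 7 and 3 with the block. The interaction gave 0, against 16 and 103 without the filter and 3 and 8 with DESeq2, and on the wider list 1 lower without the filter.

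Between tissues in control, the filter at 1 CPM left 2 members higher, and leaving out a library 2 to 6 higher and 0 to 1 lower. The wider list gave 7 higher with library size alone, and 7 to 14 higher and 6 to 10 lower with a library left out. In Atg5-knockout, members lower were 3 with library size alone, 1 without the filter, with limma-voom and in 1 fit of 12 libraries, and 0 to 1 with a library left out, which gave 3 to 5 members higher and 11 to 16 higher and 9 to 13 lower on the wider list. Ltc4s in control lost its call with the block (adjusted p = 0.0523), where what a shared number stands for is not stated and same-numbered libraries did not all deviate together (correlations 0.121, 0.127 and -0.040 in control, -0.104, -0.057 and 0.043 in Atg5-knockout, and -0.147, -0.105 and 0.004 between genotypes in bone marrow). The causes were not tested.

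Signs turned near 0. For Pla2g4a in blood between genotypes the log2 fold change was -0.0039 with RLE factors, -0.0348 without the filter, -0.0019 at 1 CPM, -0.0058 with DESeq2, -0.0398 with limma-voom, -0.0190 in 1 fit of 12 libraries and -0.0343 with the block. Library size alone gave 0.0384 for Tbxas1 there, -0.0734, -0.121 and -0.0603 for Alox15, Lta4h and Ptgs1 in control tissues, and -0.0648 for Alox5 in Atg5-knockout tissues. The Tbxas1 interaction was 0.0011 with RLE factors, 0.0797 with library size alone and 0.0021 with DESeq2. With a library left out, log2 fold changes ran from -0.0176 to 0.23 for Alox15 in bone marrow, and in blood from -0.23 to 0.18 for Pla2g4a, -0.0439 to 0.34 for Alox5ap, -0.94 to 0.39 for Ltc4s and -0.15 to 0.0519 for Tbxas1. Interactions ran from -0.0839 to 0.36 for Pla2g4a and -0.13 to 0.11 for Tbxas1. Depth limits Ltc4s, Hpgds and, in bone marrow, Ptgs2.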
